A study of Ovis aries with 27 samples.

Results

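FHL1, TNNC2, TPM1 and TUBA4A are genes of the contractile apparatus and the cytoskeleton that were measured in the septum of the fetal sheep heart. They were found by gene name, RefSeq accession or probe description, and they are 4 of 960 genes named on the array, with 5 of its 15008 probes. FHL1, TPM1 and TUBA4A had 1 probe each and TNNC2 had 2. All 5 probes were well above background on 27 of 27 arrays, and none was saturated. The genes were selected on their measured differences between these groups, so those differences are given as a description.

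Each array held RNA from the septum of a single fetus. Group sizes were 7 fetuses at 140 d of gestation whose mothers received cortisol at 1 mg/kg/day, 8 at 140 d whose mothers received vehicle (control), 6 at 130 d with cortisol and 6 at 130 d with vehicle. The 140 d fetuses were sampled between day 139 and day 144 after an infusion of about 25 days, and the 130 d fetuses between day 129 and day 131 after about 10 days. The labels do not settle when infusion began in the younger cohort, since they give both day 115 and day 120. A comparison of 140 d with 130 d is also one of cohorts and of infusion lengths, and these cannot be told apart from age. Age was also partly tied to slide. Of 5 slides, slide 1 held only 1 cortisol 140 d array, and slide 5 held only 3 control and 1 cortisol arrays of 140 d. The main fit held no term for slide. The 8 controls at 140 d came from 7 ewes, and the twin fetuses are not marked, so every fetus was counted as independent.

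In striated muscle, thin filaments of actin carry tropomyosin and the troponin complex, and calcium binding to troponin C moves tropomyosin so that myosin can attach. TPM1 encodes the alpha tropomyosin that is the main form in the heart. TNNC2 encodes the fast skeletal form of the calcium-binding troponin subunit, whereas heart muscle mainly uses the product of another gene, TNNC1. TUBA4A encodes an alpha tubulin, a subunit of microtubules. FHL1 encodes a LIM domain protein that binds titin and other sarcomere proteins and is known for its induction in hypertrophic heart muscle.

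The probe sequences define what was measured and are therefore shown in full, each 60 bases long and written 5′ to 3′ as the scanner files give them. The TNNC2 probes began at bases 502 and 503 of the same transcript and shared 59 bases, printed in capitals, so they are not independent measurements of the gene. The other probes began at base 652 of the TPM1 transcript, base 197 of TUBA4A and base 664 of FHL1.
TPM1 (A_70_P024291): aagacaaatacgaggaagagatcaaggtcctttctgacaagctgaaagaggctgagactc
TNNC2 (A_70_P029962): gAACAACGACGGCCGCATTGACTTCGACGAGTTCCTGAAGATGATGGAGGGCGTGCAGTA
TNNC2 (A_70_P029961): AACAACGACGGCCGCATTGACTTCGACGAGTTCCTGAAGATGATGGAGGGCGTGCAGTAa
TUBA4A (A_70_P026877): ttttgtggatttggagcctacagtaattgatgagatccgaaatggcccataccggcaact
FHL1 (A_70_P038346): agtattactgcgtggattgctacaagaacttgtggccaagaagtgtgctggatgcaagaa
The guanine and cytosine content was 45.0% in the TPM1, TUBA4A and FHL1 probes and 55.0% and 53.3% in the TNNC2 probes, against a median of 43.3% over the 15008 probes of the array.

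Values are log2 of the spot's processed intensity minus log2 of that array's 75th percentile, so 0 is the brightness of the 75th percentile. The 75th percentile itself lay between 602 and 1273 intensity units, and averaged 884 ± 149 (SD, n = 7) with cortisol at 140 d, 838 ± 59.3 (SD, n = 8) in 140 d controls, 1093 ± 77.0 (SD, n = 6) with cortisol at 130 d and 1160 ± 101 (SD, n = 6) in 130 d controls. Between 77.0% and 87.0% of spots were well above background. The array of cortisol 140 d replicate 4 stood apart from its group, with the dimmest 75th percentile (602) and a mean correlation of 0.955 with the other arrays of that group, the lowest of the 27. Control 130 d replicate 2 had a mean correlation of 0.977 with its group, and is named because of its TNNC2 level. Control 140 d replicate 1 had a lower mean correlation with its group, 0.971, and was left out only on its own. Of 12770 tested probes, limma called 2442 (19.1%) between 140 d and 130 d in controls and 1719 (13.5%) between 140 d and 130 d with cortisol, at a Benjamini-Hochberg adjusted p under 0.05. Higher calls were 51.1% of the calls in controls, or 70.6% when arrays were aligned on their medians, and 36.7% of the calls with cortisol, or 63.8% on medians. In bulk tissue, fewer cells of a type and less RNA per cell cannot be told apart.

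Between 140 d and 130 d, TPM1 and TUBA4A were higher at the later age in both arms. In controls TPM1 was 1.59-fold and TUBA4A 3.53-fold as high at 140 d, and every 140 d control lay above every 130 d control for both genes. With cortisol the differences were 1.36-fold for TPM1 and 2.52-fold for TUBA4A. TNNC2 was 1.50-fold as high at 140 d in controls and 1.60-fold with cortisol, and neither difference was called. FHL1 was 0.99-fold as high at 140 d in controls and 0.94-fold with cortisol, and was not called. Among the 4 genes, 2 were called higher in controls, where 9.77% of all tested probes were called higher, and 2 were called higher with cortisol, where 4.94% were. The 140 d and 130 d values did not overlap for 2 of the 4 in controls, beside 3.52% of all tested probes that were higher without overlap, and for 0 of the 4 with cortisol, beside 1.54%. These comparisons chose the genes, so nothing is read from those counts.

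Between cortisol and control fetuses of the same age, none of the 4 genes was called. At 140 d, cortisol minus control was 0.17 ± 0.24 (SE) for FHL1, -0.12 ± 0.32 for TNNC2, -0.13 ± 0.09 for TPM1 and -0.21 ± 0.36 for TUBA4A on the log2 scale. At 130 d it was 0.25 ± 0.27 for FHL1, -0.21 ± 0.35 for TNNC2, 0.10 ± 0.10 for TPM1 and 0.27 ± 0.41 for TUBA4A. limma called 0 of 12770 probes (0%) at either age, with 726 probes at an unadjusted p under 0.05 at 140 d and 455 at 130 d. The intervals give the differences that are not excluded. At 140 d the 95% interval ran between 0.81-fold and 1.03-fold for TPM1, but between 0.51-fold and 1.45-fold for TUBA4A.

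**Figure D1:**
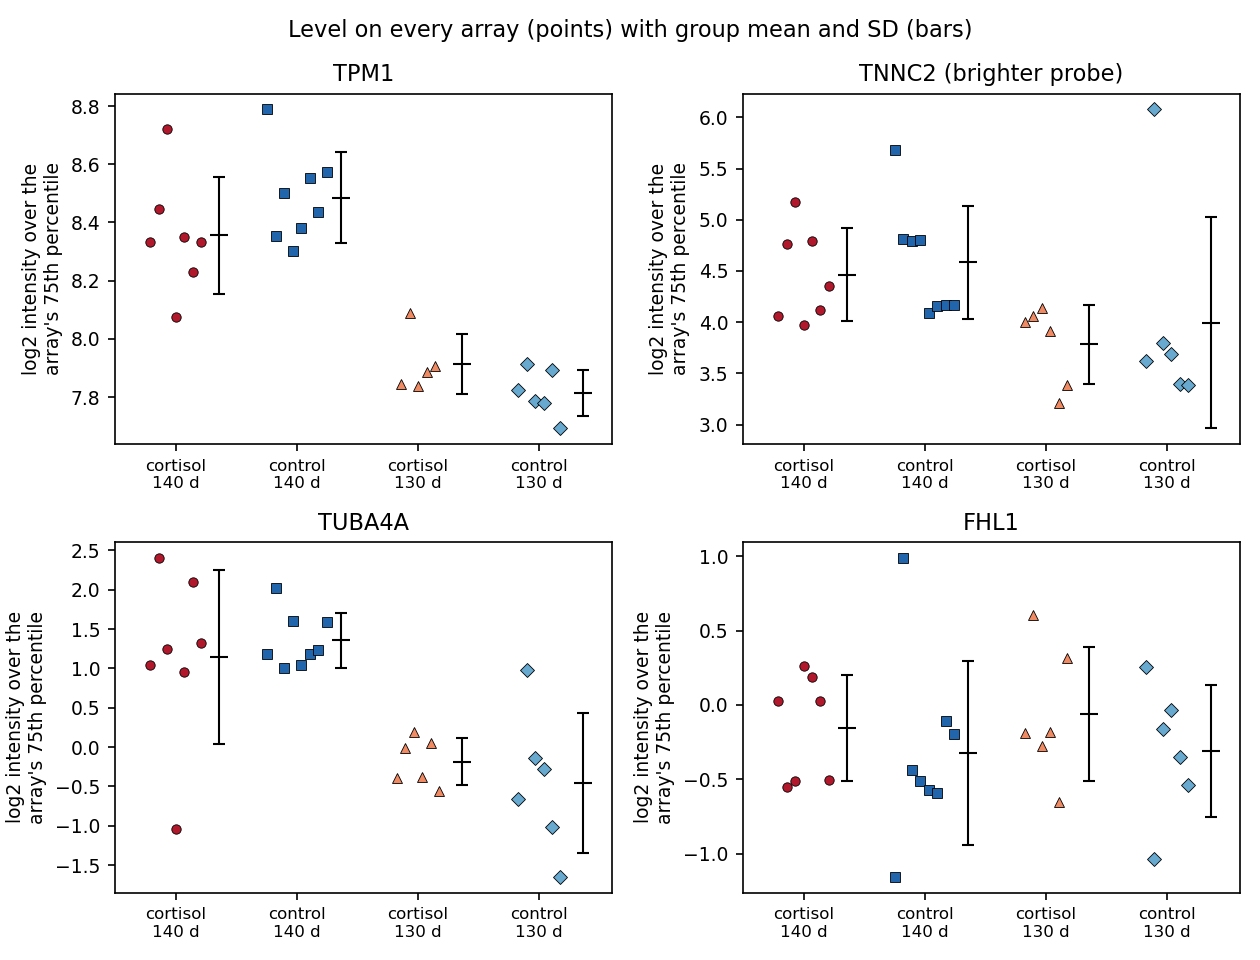
Level of each gene on every array (points, log2 intensity over the array's 75th percentile) in cortisol 140 d, control 140 d, cortisol 130 d and control 130 d fetuses, with the group mean and SD beside them. The 140 d controls lie above the 130 d controls without overlap for TPM1 and TUBA4A, single arrays stand apart at 6.08 for TNNC2 and at -1.04 for TUBA4A, and FHL1 overlaps throughout.

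TPM1, the tropomyosin of the thin filament, varied least between fetuses of a group. Its level ran between 8.07 and 8.72 (median 8.33) in 7 cortisol fetuses and between 8.30 and 8.79 (median 8.47) in 8 controls at 140 d. At 130 d it ran between 7.84 and 8.09 (median 7.89) in 5 cortisol fetuses and between 7.69 and 7.91 (median 7.80) in 6 controls. The groups were therefore ordered control 140 d, cortisol 140 d, cortisol 130 d and control 130 d, and the neighbours of equal age overlapped. The lowest cortisol fetus at 140 d, replicate 4 at 8.07, fell just under the highest at 130 d, replicate 2 at 8.09, and the other 6 lay above all 130 d values.

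One TPM1 spot was left out because the scanner software marked it as outlying. It was cortisol 130 d replicate 3, with a level of 7.59, below all 5 of the others in its group. TPM1 averaged 8.36 ± 0.20 (SD, n = 7) with cortisol and 8.49 ± 0.16 (SD, n = 8) in controls at 140 d. At 130 d it averaged 7.91 ± 0.10 (SD, n = 5) with cortisol and 7.81 ± 0.08 (SD, n = 6) in controls. The 140 d minus 130 d difference was 0.67 ± 0.09 on the log2 scale in controls (95% interval 0.49 to 0.86) and 0.44 ± 0.10 with cortisol (0.24 to 0.64). With the marked spot kept, the cortisol difference was 0.50.

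The size of the TPM1 difference depended on how arrays were brought to a common scale. With arrays aligned on their medians it was 0.76 in controls and 0.54 with cortisol, both called, on the log2 scale. Before any scaling, median intensities were 296712 with cortisol and 300503 in controls at 140 d, and 266085 with cortisol (5 arrays) and 263843 in controls at 130 d. Fitted on mean log2 intensity without scaling, 140 d minus 130 d was 0.21 in controls and 0.13 with cortisol, and neither was called. The bright end of the whole distribution was also higher over the 75th percentile at 140 d. The 99th percentile averaged 6.38 ± 0.08 (SD, n = 7) with cortisol and 6.39 ± 0.05 (SD, n = 8) in controls at 140 d, and 6.15 ± 0.06 (SD, n = 6) with cortisol and 6.17 ± 0.14 (SD, n = 6) in controls at 130 d. Quantile normalization, which gives every array the same distribution, left TPM1 differences of 0.27 in controls and 0.18 with cortisol, and neither was called. On 27 of 27 arrays the TPM1 value came from the scanner's low-gain scan, scaled up by its software.

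A pair of unnamed probes were designed on expressed sequence tags that the files list among the accessions of the TPM1 probe. They are shown because one follows TPM1 and the other does not, and their longest runs shared with the TPM1 probe were 8 bases for tag b and 5 bases for tag a.
TPM1-linked tag b (A_70_P001771): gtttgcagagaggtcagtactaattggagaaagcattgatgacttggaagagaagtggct
TPM1-linked tag a (A_70_P048206): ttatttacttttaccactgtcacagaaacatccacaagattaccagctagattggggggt
Tag b averaged 7.91 ± 0.32 (SD, n = 7) with cortisol and 8.05 ± 0.16 (SD, n = 8) in controls at 140 d, and 7.39 ± 0.13 (SD, n = 5) with cortisol and 7.35 ± 0.11 (SD, n = 6) in controls at 130 d. It was higher at 140 d by 0.71 ± 0.12 in controls (adjusted p = 0.000327) and by 0.52 ± 0.12 with cortisol (adjusted p = 0.00781) on the log2 scale, by limma's moderated test. Its correlation with TPM1 was 0.87 over 26 arrays after the group means were taken out. Tag b read from the low-gain scan on 27 of 27 arrays as well, and lost the same array of cortisol 130 d to an outlier mark. Its group means, like those of TPM1, lay above the 99th percentile averages, so the same scaling limit applies. Tag a was lower at 140 d by 0.15 in both arms, which was not called (adjusted p = 0.538 in controls and 0.598 with cortisol, limma). Which transcripts the tags detect is not given in the sources used here, beyond the shared listing.

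TNNC2, the fast skeletal troponin C, varied widely between arrays of a group. The brighter of its probes ran between 3.97 and 5.17 (median 4.36) in 7 cortisol fetuses and between 4.09 and 5.68 (median 4.48) in 8 controls at 140 d. At 130 d it ran between 3.21 and 4.13 (median 3.96) in 6 cortisol fetuses and between 3.39 and 6.08 (median 3.66) in 6 controls. A single 130 d control, replicate 2, held the highest TNNC2 level of all 27 arrays, while the other 5 controls of that age lay between 3.39 and 3.80, below every 140 d fetus. The levels also differed by slide. At 140 d, controls read 4.80 to 5.68 on slides 2 and 3, and 4.09 to 4.17 on slides 4 and 5. At 130 d, cortisol fetuses read 3.91 to 4.13 on slides 2 and 3, and 3.21 and 3.39 on slide 4. With cortisol at 140 d the lowest array, at 3.97, was on slide 3. The cause was not tested.

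The mean TNNC2 level was 4.46 ± 0.46 (SD, n = 7) with cortisol and 4.58 ± 0.55 (SD, n = 8) in controls at 140 d, and 3.78 ± 0.39 (SD, n = 6) with cortisol and 4.00 ± 1.03 (SD, n = 6) in controls at 130 d. The 140 d minus 130 d difference was 0.59 ± 0.33 in controls (95% interval -0.09 to 1.27) and 0.68 ± 0.34 with cortisol (-0.02 to 1.38). Within slides 2, 3 and 4 it was 0.40, 1.06 and 0.70 in controls and 0.94, 0.36 and 0.81 with cortisol. Without control 130 d replicate 2 the difference in controls was 1.00, and it was then called. Without both that array and cortisol 140 d replicate 4, the cortisol difference was 0.76 and was called too. Without cortisol 140 d replicate 4 alone, the cortisol difference was also 0.76 and was not called. Control 130 d replicate 2 was picked for its TNNC2 level, so nothing is read from the calls gained without it. Leaving out control 130 d replicate 2 also turned cortisol minus control at 130 d to 0.21, against -0.21 with all arrays. Leaving out control 140 d replicate 1, at 5.68, turned it at 140 d to 0.04, against -0.12. Without that array, the 140 d minus 130 d difference in controls was 0.43 and was not called.

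The second TNNC2 probe gave nearly the same values, with a correlation of 0.989 over 27 arrays and a mean difference between the probes of -0.02 ± 0.10 (SD). The array of control 130 d replicate 2 read 6.10 on it, against 3.52 to 3.73 in the other 5 controls, so both spots gave the high value. The second probe's 140 d minus 130 d difference was 0.52 ± 0.32 in controls and 0.78 ± 0.33 with cortisol. The interval with cortisol excluded 0 for this probe (0.10 to 1.46), and included it for the other.

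Markers of fast and embryonic skeletal muscle were looked at beside TNNC2, because TNNC2 is itself such a marker. Of 20 listed, 4 were named on the array. TNNC2, MYLPF (the fast skeletal regulatory myosin light chain) and MYOD1 (a myogenic transcription factor) were well above background on 27 of 27 arrays. MYF5, another myogenic factor, was so on 0 of 27. At 140 d the mean log2 level of the 3 detected markers ran between 0.29 and 1.21 with cortisol (6 arrays with all 3 values). In controls it ran between 0.57 and 1.67. At 130 d it ran between 0.22 and 0.86 with cortisol and between 0.26 and 1.59 in controls. TNNC2 is part of this mean, so the mean is not a separate view of skeletal muscle RNA. MYOD1 was dim, and averaged -4.10 ± 0.44 (SD, n = 7) with cortisol and -4.16 ± 0.33 (SD, n = 8) in controls at 140 d. At 130 d it averaged -4.33 ± 0.22 (SD, n = 6) with cortisol and -4.28 ± 0.35 (SD, n = 6) in controls. After the group means were taken out, TNNC2 correlated with MYLPF at 0.51 over 26 arrays and with MYOD1 at 0.33 over 27. MYLPF was not called between the ages, at 0.44 ± 0.23 in controls (limma adjusted p = 0.194) and 0.11 ± 0.25 with cortisol (limma adjusted p = 0.825). Whether skeletal muscle RNA had a part in the TNNC2 level was not tested. Myoglobin (MB), which heart and oxidative skeletal muscle share, was the only one of 19 cardiomyocyte markers named on the array. The labelled tissue could therefore not be checked against named markers particular to the heart.

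TUBA4A, the alpha tubulin, had the largest difference of the 4 genes between the ages. Its level ran between -1.04 and 2.40 (median 1.25) in 7 cortisol fetuses and between 1.01 and 2.02 (median 1.21) in 8 controls at 140 d. At 130 d it ran between -0.56 and 0.19 (median -0.20) in 6 cortisol fetuses and between -1.65 and 0.97 (median -0.47) in 6 controls. The gap between the 140 d and 130 d controls was narrow, since control 130 d replicate 2 at 0.97 came close to the lowest 140 d control at 1.01. In the cortisol arm 6 of 7 fetuses at 140 d exceeded all 130 d fetuses, and the remaining one, replicate 4, lay below all of them.

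The mean TUBA4A level was 1.15 ± 1.11 (SD, n = 7) with cortisol and 1.36 ± 0.35 (SD, n = 8) in controls at 140 d, and -0.19 ± 0.30 (SD, n = 6) with cortisol and -0.46 ± 0.89 (SD, n = 6) in controls at 130 d. The 140 d minus 130 d difference was 1.82 ± 0.38 in controls (95% interval 1.04 to 2.60) and 1.33 ± 0.39 with cortisol (0.53 to 2.14). Without cortisol 140 d replicate 4, the cortisol difference was 1.70, and cortisol minus control at 140 d was 0.16, against -0.21 with all arrays. The call with cortisol was lost in 3 of 27 fits that left out a single array, which were cortisol 130 d replicate 6 and cortisol 140 d replicates 2 and 6. On slide 3 alone, which held cortisol 140 d replicate 4, the cortisol difference was 0.06, against 2.03 on slide 2 and 2.35 on slide 4. In controls it was 1.45, 1.51 and 2.38 on slides 2, 3 and 4.

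An alpha tubulin was also measured by a pair of probes to a sheep tubulin-alpha clone. They shared 59 bases with each other and no run longer than 5 bases with the TUBA4A probe. Which alpha tubulin gene the clone belongs to was not established here. The brighter of the pair is shown, since it differed between the ages in the direction opposite to TUBA4A, with the bases shared by the pair in capitals.
tubulin-alpha clone (A_70_P024181): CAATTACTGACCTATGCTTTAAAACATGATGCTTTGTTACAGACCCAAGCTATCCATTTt
It averaged 5.67 ± 0.45 (SD, n = 7) with cortisol and 5.82 ± 0.21 (SD, n = 8) in controls at 140 d, and 6.47 ± 0.28 (SD, n = 6) with cortisol and 6.36 ± 0.28 (SD, n = 6) in controls at 130 d. The 140 d minus 130 d difference was -0.55 ± 0.17 in controls (adjusted p = 0.0244) and -0.80 ± 0.17 with cortisol (adjusted p = 0.00345) by limma. The second probe of the pair fell by 0.62 in controls (adjusted p = 0.0128) and by 0.74 with cortisol (adjusted p = 0.00606), by limma. All 7 cortisol fetuses at 140 d lay below the cortisol mean at 130 d, and 6 of them lay below every cortisol fetus at 130 d. Only differences, not levels, are set beside those of TUBA4A.

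**Figure D2:**
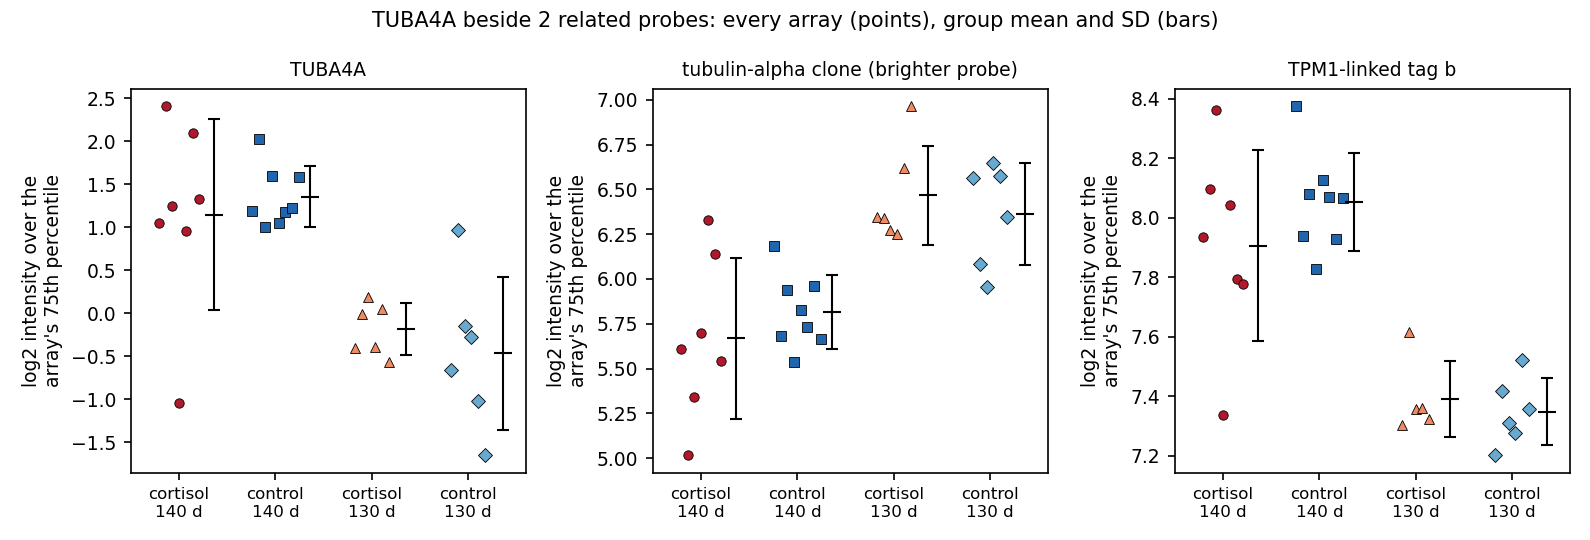
TUBA4A, the tubulin-alpha clone and the TPM1-linked tag b on every array (points, log2 intensity over the array's 75th percentile) in cortisol 140 d, control 140 d, cortisol 130 d and control 130 d fetuses, with the group mean and SD. TUBA4A and tag b are higher at 140 d, and the tubulin-alpha clone is lower, with means of 5.67 and 5.82 at 140 d against 6.47 and 6.36 at 130 d.

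FHL1, the LIM domain protein, showed no ordered difference between groups. Its level ran between -0.55 and 0.26 (median 0.03) in 7 cortisol fetuses and between -1.16 and 0.99 (median -0.48) in 8 controls at 140 d. At 130 d it ran between -0.65 and 0.61 (median -0.18) in 6 cortisol fetuses and between -1.03 and 0.26 (median -0.26) in 6 controls. All 4 groups overlapped each other, and the 140 d controls held both the lowest and the highest array. The mean was -0.15 ± 0.36 (SD, n = 7) with cortisol and -0.32 ± 0.62 (SD, n = 8) in controls at 140 d, and -0.06 ± 0.45 (SD, n = 6) with cortisol and -0.31 ± 0.45 (SD, n = 6) in controls at 130 d.

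The FHL1 difference between the ages was -0.01 ± 0.25 in controls (95% interval -0.53 to 0.51) and -0.09 ± 0.26 with cortisol (-0.62 to 0.44). Those intervals run between 0.69-fold and 1.42-fold in controls and between 0.65-fold and 1.36-fold with cortisol. Changes within those limits, in either direction, are therefore not excluded here. Cortisol minus control was positive at both ages, at 0.17 (-0.33 to 0.67) at 140 d and 0.25 (-0.31 to 0.80) at 130 d, within the spread between fetuses.

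**Figure D3:**
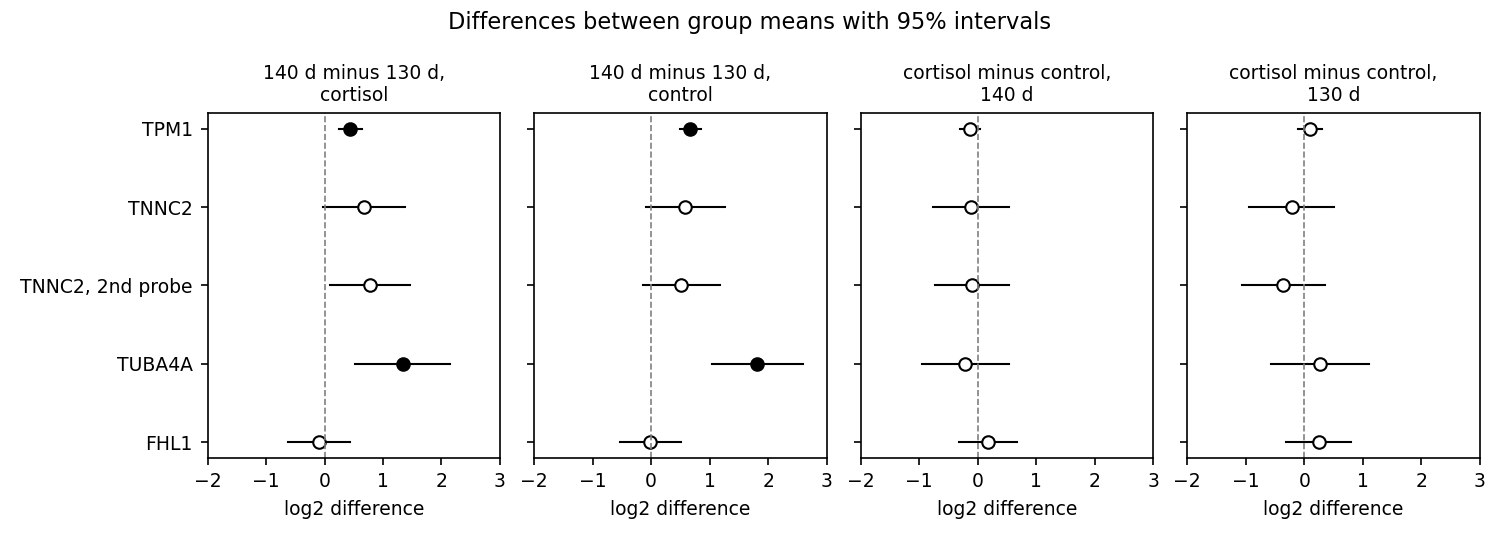
Differences between group means (log2, points) with 95% intervals for TPM1, both TNNC2 probes, TUBA4A and FHL1. From left to right the panels show 140 d minus 130 d with cortisol, 140 d minus 130 d in controls, cortisol minus control at 140 d and cortisol minus control at 130 d. Filled points mark differences called over all 12770 probes, which are those of TPM1 and TUBA4A in both age panels.

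Whether the cortisol difference itself changed with age was fitted as an interaction, cortisol minus control at 140 d minus the same at 130 d. It was -0.08 ± 0.36 for FHL1, 0.09 ± 0.47 for TNNC2, -0.23 ± 0.13 for TPM1 and -0.48 ± 0.55 for TUBA4A on the log2 scale, and none was called. limma called 0 of 12770 probes (0%), with 743 at an unadjusted p under 0.05. The larger age differences in controls than with cortisol, for TPM1 and for TUBA4A, are therefore not shown to differ between the arms. Without cortisol 140 d replicate 4 the interaction was -0.12 for TUBA4A and -0.18 for TPM1.

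The genes also differed in how much they varied within groups. The within-group SD was 0.15 for TPM1, 0.49 for FHL1, 0.64 for TNNC2 and 0.74 for TUBA4A, against a median of 0.29 over all tested probes. Of the tested probes, 5.32% had a smaller SD than TPM1, and 80.6%, 90.2% and 93.4% had a smaller SD than FHL1, TNNC2 and TUBA4A. TPM1 was thus steadier than most probes, and the other 3 genes were more variable than most. This sets TPM1, read from the low-gain scan on 27 of 27 arrays, against probes of all brightness. Its SD also leaves out the marked spot at 7.59.

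Deviations from the group means were compared across genes to see which moved together from fetus to fetus. TNNC2 and TUBA4A deviated together at r = 0.49 over 27 arrays, but at r = 0.13 over 25 without control 130 d replicate 2 and cortisol 140 d replicate 4. TPM1 and TNNC2 correlated at 0.49 over 26 arrays and at 0.53 over 24 without those arrays. TPM1 and TUBA4A correlated at 0.32 over 26 arrays and at -0.08 over 24 without them. FHL1 ran the other way from TNNC2, at -0.36 over 27 arrays and -0.12 over 25. All of these values share the arrays, their slides and their scaling.

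**Figure D4:**
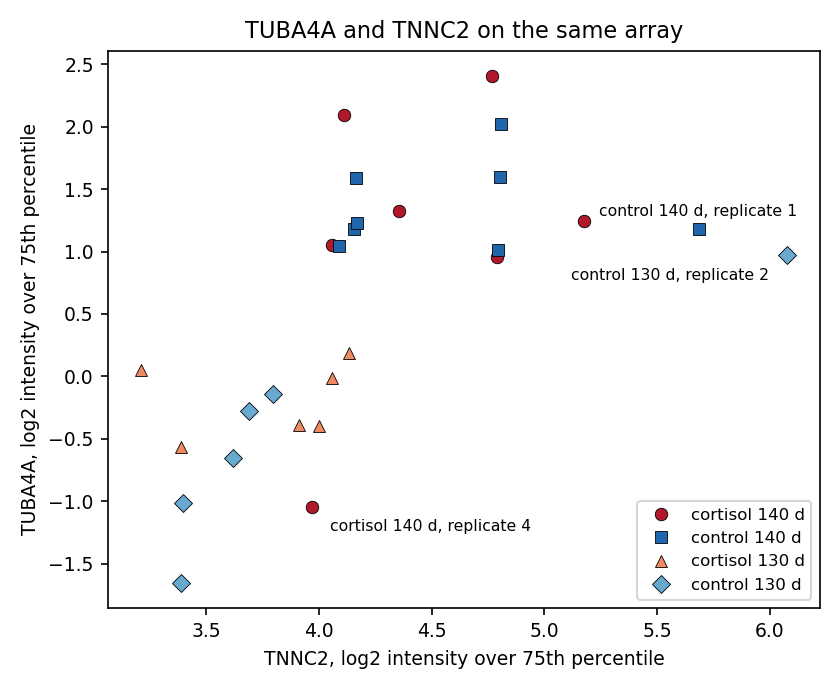
TUBA4A against TNNC2 on each of 27 arrays (both axes log2 intensity over the array's 75th percentile), with symbols for cortisol 140 d, control 140 d, cortisol 130 d and control 130 d. Control 130 d replicate 2 is highest for TNNC2 (6.08) and, at 0.97 for TUBA4A, lies above the other 130 d fetuses and just below the 140 d controls, and cortisol 140 d replicate 4 (TUBA4A -1.04) lies among the 130 d fetuses.

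The named genes whose levels ran most like each of the 4 genes were taken from 792 others, with r over the arrays as the measure. For TUBA4A they were CPT1B (r = 0.87), the muscle enzyme that admits long-chain fatty acids to mitochondria, SLC25A33 (0.85), a mitochondrial nucleotide carrier, and PLIN5 (0.84), a lipid droplet protein, over 27 arrays. For TPM1 they were SLC25A6 (0.91), an ADP/ATP carrier, SLC25A33 (0.89) and ATP5PD (0.88), an ATP synthase subunit, over 26 arrays. For TNNC2 they were LPL (0.79), the lipase that frees fatty acids from lipoproteins, YBX1 (0.76), an RNA-binding protein, and GLUT4 (0.71), the insulin-responsive glucose transporter. For FHL1 they were CNN1 (0.67), a smooth muscle calponin, VIM (0.57), an intermediate filament protein, and TIMP1 (0.57), a metalloproteinase inhibitor.

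With the group means taken out, the highest correlations for TUBA4A were with CPT1B (0.77), SLC25A20 (0.68) and VDAC1 (0.67). TPM1 deviated most like ATP5PO (0.77), BARX2 (0.73) and ENO3 (0.69), and TNNC2 like LPL (0.76), YBX1 (0.70) and GLUT4 (0.69). FHL1 deviated most like ACTG1 (0.72), CNN1 (0.66) and ST3GAL4 (0.64). Some of these values rested on control 130 d replicate 2 and cortisol 140 d replicate 4. Without both arrays, TUBA4A deviated with CPT1B at 0.42, with SLC25A20 at 0.44 and with VDAC1 at -0.01, and TNNC2 with LPL at 0.62, with YBX1 at 0.39 and with GLUT4 at 0.53, over 25 arrays. The values without them ran between 0.65 and 0.72 for the 3 genes of TPM1, over 24 arrays, and between 0.58 and 0.66 for those of FHL1, over 25. Of the smooth muscle markers only CNN1 was named on the array, 1 of 9 listed. At 140 d its level ran between 2.65 and 5.33 with cortisol and between 2.62 and 6.63 in controls. At 130 d it ran between 3.26 and 4.91 with cortisol and between 2.80 and 4.66 in controls. Its part in the FHL1 level was not tested.

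Few other genes of the sarcomere and cytoskeleton could be named on this array. No gene name was found for 13415 of its 15008 probes, so listed genes may be present on unnamed probes. Lists for the thin filament, thick filament and titin, the Z-disc with LIM and intermediate filament proteins, tubulin with microtubules, and the actin cytoskeleton held 170 genes besides the 4, and 11 of these were tested. Between 140 d and 130 d in controls, 2 of the 11 were called higher, 2 lower and 7 neither, with a median difference of 0.03, against -0.01 over all tested probes. With cortisol, 2 were called higher, 0 lower and 9 neither, with a median of 0.10, against -0.04 over all probes. Of all tested probes, 9.77% were called higher in controls and 4.94% with cortisol. In either direction the shares were 19.1% and 13.5%. Between cortisol and control, 0 of 11 were called at either age.

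CRYAB, the small heat shock chaperone of the Z-disc and desmin filaments, was higher at 140 d by 0.77 ± 0.14 in controls (limma adjusted p = 0.000691) and by 0.53 ± 0.14 with cortisol (limma adjusted p = 0.0144). KIF5B, a kinesin motor that walks along microtubules, was higher by 0.40 ± 0.10 in controls (limma adjusted p = 0.00684) and by 0.36 ± 0.10 with cortisol (limma adjusted p = 0.0213). CRYAB averaged 6.83 ± 0.42 (SD, n = 7) with cortisol and 7.00 ± 0.11 (SD, n = 8) in controls at 140 d, and 6.29 ± 0.12 (SD, n = 6) with cortisol and 6.23 ± 0.24 (SD, n = 6) in controls at 130 d. These means lay above the 99th percentile averages of the same groups, which were themselves higher at 140 d. The scaling limit given for TPM1 therefore applies to CRYAB as well.

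Of 5 tested actin cytoskeleton genes, 2 were called lower at 140 d in controls and 0 with cortisol. Over all tested probes, 19.1% were called in either direction in controls and 13.5% with cortisol. ACTG1, cytoplasmic gamma actin, fell by 0.70 ± 0.18 at 140 d in controls (limma adjusted p = 0.00746), and CFL1, the actin-severing protein cofilin, fell by 0.54 ± 0.18 (limma adjusted p = 0.0329). With cortisol the differences were -0.41 for ACTG1 (limma adjusted p = 0.130) and -0.51 for CFL1 (limma adjusted p = 0.0582), neither called. The second ACTG1 probe disagreed on that call, at -0.54 with an adjusted p of 0.0407 by limma. RHOA, RAC1, VIM, MYL6, MYLPF, MYLK and FBXO32 were tested and not called in either arm, and ACTB was not tested because it was too rarely above background.

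A probe to a cluster like rabbit nebulin, the giant ruler protein of the thin filament, was higher in 140 d than 130 d controls by 1.37 ± 0.43 (limma adjusted p = 0.0254). It was dim, and was well above background on 8 of 8 controls at 140 d and 3 of 6 controls at 130 d. With cortisol the difference was 0.70 ± 0.44 (limma adjusted p = 0.308). Probes to clusters like smooth muscle regulatory myosin light chain and cytoplasmic actin 2 were not called in any comparison. The cytoplasmic actin 2 probe was higher at 140 d by 0.27 ± 0.36 in controls and by 0.24 ± 0.37 with cortisol. Cytoplasmic actin 2 is another name for cytoplasmic gamma actin, the product of ACTG1, so this probe may belong to the same gene. Its differences were opposite in sign to those given for the ACTG1 probes, so the probes disagree. Which gene the cluster belongs to was not established here.

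Cell type markers were set beside the age differences of TPM1 and TUBA4A. MB was higher at 140 d in controls by 0.48 ± 0.15 (limma adjusted p = 0.0282) and by 0.19 ± 0.16 with cortisol, which was not called (limma adjusted p = 0.462). Like TPM1, MB lay above the 99th percentile averages in every group, so the same scaling limit applies. In controls, 1 of 5 tested fibroblast markers, 3 of 5 immune markers and 1 of 2 red blood cell markers were called lower. Of 5 adipocyte markers, 3 were called higher, and 0 of 4 endothelial markers were called. Over all tested probes in controls, 9.77% were called higher and 19.1% were called in either direction. The adipocyte markers FABP4 and UCP1 were well above background on only 17 and 12 arrays. With cortisol, 1 of 4 endothelial and 2 of 5 adipocyte markers were called higher, beside 4.94% of all tested probes. The endothelial markers went both ways with cortisol. FLT1, which was dim, averaged -4.64 at 140 d against -6.09 at 130 d, and PECAM1 2.05 against 1.81. KDR averaged -2.90 against -2.36 and TIE1 -2.77 against -2.59. None was called among 5 fibroblast, 5 immune and 2 red blood cell markers with cortisol, beside 13.5% of all tested probes called in either direction. The mean log2 level of the fibroblast markers ran between 0.58 and 2.06 with cortisol and between 0.66 and 1.31 in controls at 140 d, and between 1.24 and 1.66 with cortisol and between 1.14 and 1.71 in controls at 130 d. The mean of the immune markers ran between -3.28 and -1.65 with cortisol and between -3.33 and -2.59 in controls at 140 d, and between -2.84 and -2.04 with cortisol and between -2.60 and -1.19 in controls at 130 d. The part of cell composition in the differences of the 4 genes was not tested.

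**Figure D5:**
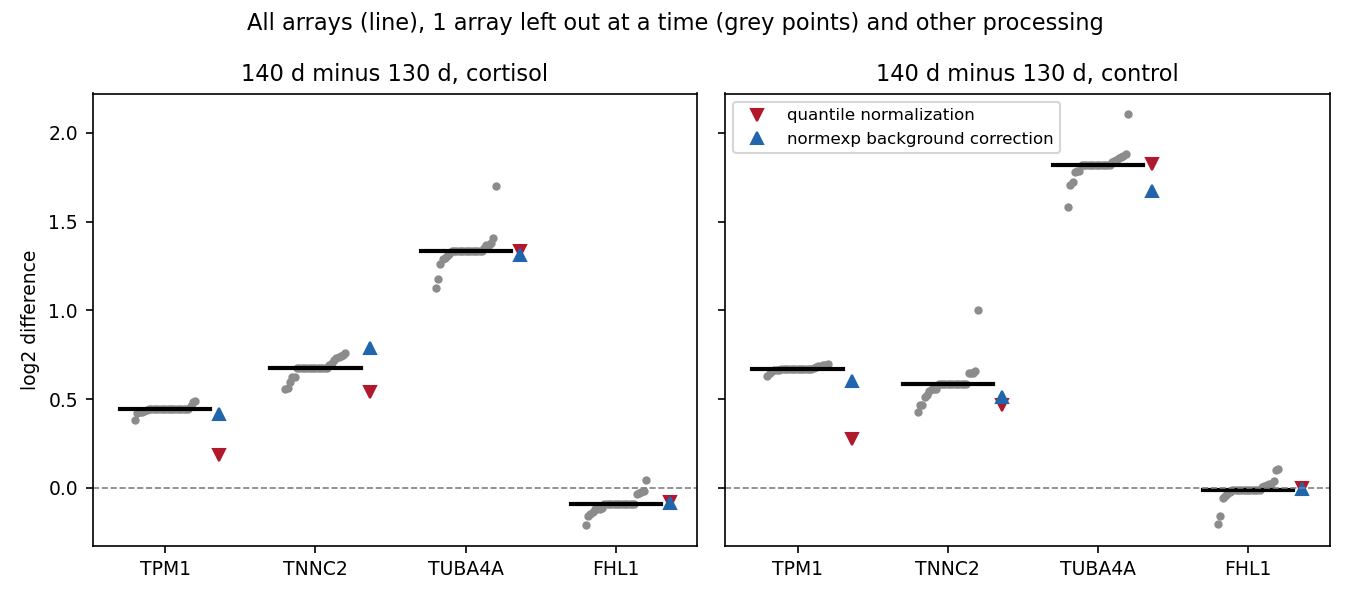
The 140 d minus 130 d difference (log2) of TPM1, TNNC2, TUBA4A and FHL1 with cortisol (left) and in controls (right). Lines are all arrays, grey points leave out 1 of 27 arrays at a time, and triangles use quantile normalization or normexp background correction. TUBA4A ran between 1.13 and 1.70 with cortisol and between 1.58 and 2.11 in controls, TNNC2 reached 1.00 in controls without control 130 d replicate 2, and TPM1 was 0.18 and 0.27 after quantile normalization.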

How the data were processed

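The authors deposited 1 scanner file per array with spot intensity values. The submitters' processing notes name Agilent Feature Extraction 10.1.1.1. Per the file headers, these intensities had their background subtracted and no normalization across arrays. A deposited table of log2 values equalled log2 of the same intensities minus 1 constant per array. RNA was labelled with Cy3 on 1-colour arrays, per the labels' protocols.

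Here log2 intensity minus each array's 75th percentile was used. Spots marked as outlying were left out, spots of a probe were averaged, and tests covered the 12770 probes that 6 or more arrays showed well above background. The 4 group means were fitted in a single model with limma 3.58.1 in R 4.3.3 (lmFit and eBayes), with p-values adjusted by Benjamini-Hochberg over all tested probes and called under 0.05. The fit was tested on simulated data, where it recovered most of the changed probes. The number of arrays limits the precision. Fetuses are separate animals apart from the unmarked twins.

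All probes of the 4 genes are named. Other list genes are named where called, at most 4 per list and comparison, and the likeness rule takes 3 genes by highest r. A gene with several probes is represented by the brightest on average. The related probes were picked by their descriptions. The members and lists were chosen with earlier results of these data known. Alternatives covered the scaling, background correction, dim-probe filter, slide, replicate number, the authors' table and each array left out. Leaving arrays unscaled, keeping outlying spots and leaving out both arrays that stood apart were chosen after seeing the data. No genome build is named in the files, so no coordinates are given, and protein sequences were not used here.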

Additional observations from a re-analysis of the deposited data

Results flagged for a closer look

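A single array lay far from the others of its group in 5 of 20 checks of a gene's probe within a group, where chance gives about 1 in 20. On the array of control 130 d replicate 2, TNNC2 read 6.08 on the brighter probe, against 3.39 to 3.80 in the other 5 controls, and 6.10 on the second probe, against 3.52 to 3.73. These probes share 59 bases and so count as a single observation of that fetus. On control 140 d replicate 1, TNNC2 read 5.68 on the brighter probe, against 4.09 to 4.81 in the other 7 controls. TUBA4A read -1.04 on cortisol 140 d replicate 4, against 0.96 to 2.40 in the other 6 fetuses. TPM1 read 8.09 on cortisol 130 d replicate 2, against 7.84 to 7.91 in the other 4 fetuses with a value. The causes were not tested.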

How the results depend on the processing

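Over 18 alternatives, 367 of 400 values kept their direction where called and their side of the threshold, and 0 called values turned in sign. TPM1 lost its call under quantile normalization (0.27 in controls, 0.18 with cortisol) and without scaling between arrays (0.21 and 0.13). TUBA4A with cortisol lost its call without scaling (1.01), with normexp (1.31) and when only the compared groups were fitted (1.33). Without control 130 d replicate 2 and cortisol 140 d replicate 4, TNNC2 gained a call in controls (1.00) and with cortisol (0.76). Control 130 d replicate 2 was picked for its TNNC2 level, so nothing is read from those calls. Leaving out control 140 d replicate 1 instead moved the TNNC2 difference in controls the other way, to 0.43, not called. Within slides 2, 3 and 4, each fitted alone with few arrays and hence fewer degrees of freedom, no call of these genes held: TPM1 was 0.70, 0.62 and 0.59 in controls and 0.62, 0.37 and 0.33 with cortisol, and TUBA4A 1.45, 1.51 and 2.38 in controls and 2.03, 0.0567 and 2.35 with cortisol. Leaving out 1 array at a time, the 140 d minus 130 d difference ran between 0.43 and 1.00 for TNNC2 in controls and between 1.13 and 1.70 for TUBA4A with cortisol, and the calls of the interaction numbered between 0 and 2. Over all probes, normexp called 536 in controls and 339 with cortisol, no scaling 7272 and 4849, and slides alone 3, 5 and 2 in controls, 1, 0 and 29 with cortisol and 1 for cortisol at 140 d on slide 2. Higher calls were 71.3% in controls and 64.2% with cortisol by the authors' table, 52.2% with cortisol under normexp, and 1.11% and 2.78% without scaling. The median over all probes in controls was 0.15 under normexp and -0.47 without scaling. The causes were not tested.

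With the replicate number as a block, the counts were 2499 in controls and 1788 with cortisol, 1 probe was called for the interaction, and TPM1 was 0.66 in controls and 0.42 with cortisol. Same-numbered arrays correlated between -0.17 and 0.36 over 37 pairs, 13 of them over 0.1, against 38 of 235 pairs with other numbers, and 11 of 27 arrays correlated best with their own number. Of these pairs, 25 of 37 shared a slide, against 39 of 235. The numbers were not taken as pairing the fetuses, because not every pair passed 0.1. TPM1 had no value from the authors' table, and the mean of a gene's probes applied to TNNC2 only. For dim probes, background limits what can be seen.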
